A study of Mus musculus with 2 samples.

Results

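The open chromatin around 10 genes of blood stem and progenitor cells was described in the liver of mouse embryos at 13.5 days. The genes were Kit, Flt3, Cd34, Procr, Runx1, Meis1, Mecom, Hlf, Hhex and Mllt3, 10 of the 21938 protein-coding genes of the GENCODE vM21 annotation, and they were chosen by name and known function. Chromatin accessibility had been measured by DNase-seq, in which the enzyme DNase I cleaves accessible DNA, where no nucleosome shields it. For each gene, every peak and footprint that lay in the gene body or within 100 kb of any of its transcript starts was taken. A footprint is a short stretch inside open chromatin that is cut less than its surroundings, as happens where a protein covers the DNA. These territories covered 3.03 Mb and held 144 of 76130 peaks and 271 of 151079 footprints in biological replicate 1, against 129 of 73852 peaks and 432 of 230992 footprints in biological replicate 2.

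Both libraries came from embryonic liver of a mixed C57BL/6N and 129 background, labelled wild type with the A85 YAC, a yeast artificial chromosome present in multiple copies. They are 2 biological replicates of 1 group with the same donor label, and the sex was not collected. The labels name no second condition, so values were set beside those of all genes or regions and replicate 1 was set against replicate 2, which compares 2 libraries and not 2 conditions. The labels do not say what the YAC carries. The tissue was whole liver, in which fewer cells of a type and less accessibility per cell cannot be told apart.

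In the fetal liver, blood stem cells that have arrived from the aorta expand and give rise to progenitors and red cells, while hepatoblasts grow around them. Stem and progenitor cells receive growth signals through surface receptors such as Kit and Flt3. Their identity is kept by transcription factors such as Runx1, Meis1, Mecom, Hlf and Hhex, which bind promoters and distant enhancers that DNase-seq detects as open sites.

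Deposited peak signals were spaced in whole multiples of 0.0127 (replicate 1) or 0.00604 (replicate 2), so that each value corresponds to a count. The median peak held 69 counts in replicate 1 and 126 in replicate 2, and the intervals given below are 95% Poisson intervals of such counts, which cover counting error only. Peaks of both replicates that overlapped by at least 1 bp were joined to regions, and those holding peaks from both are called shared. Promoters of marker genes of other liver cells differed widely in these libraries, with a shared promoter region at 9 of 10 erythroid, 3 of 10 hepatoblast, 2 of 10 endothelial, 1 of 8 macrophage, 3 of 6 megakaryocyte, 1 of 4 mast cell and 3 of 5 stellate genes. Of the hepatoblast genes Afp, Prox1 and Trf had such a region, Alb and Foxa2 had a promoter peak in replicate 1 alone, and Hnf4a, Ttr and Apoa1 in replicate 2 alone. The part of these cell types in the values below was not tested.

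Of the 10 stem and progenitor genes 7 showed a shared region at most 1 kb away from a transcript start, called a promoter region here, as did 58.4% of all protein-coding genes. The 7 were Kit, Runx1, Meis1, Mecom, Hlf, Hhex and Mllt3. In replicate 1 these 7 genes alone had a promoter peak, where the share of all genes was 60.6%. In replicate 2 Cd34 and Procr had one as well, which made 9 of 10 genes beside 65.3% of all genes. Flt3 had none in either replicate. With so few genes these shares do not set the group apart from other genes.

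The highest promoter region of each gene followed the same order in both replicates. It was highest at Mllt3, where replicate 1 gave a signal of 9.32 (interval 8.65 to 10.01) and replicate 2 one of 7.0 (6.60 to 7.42), and next at Runx1, with 7.48 (6.89 to 8.11) and 6.10 (5.73 to 6.48). Kit followed with 3.75 (3.33 to 4.2) and 3.33 (3.05 to 3.62), Hlf with 2.70 (2.35 to 3.08) and 2.47 (2.24 to 2.72), and Meis1 with 2.57 (2.23 to 2.95) and 1.93 (1.72 to 2.15). Hhex had 2.00 (1.70 to 2.34) and 1.91 (1.70 to 2.13), and Mecom was lowest with 1.68 (1.41 to 2.00) and 1.32 (1.15 to 1.5). The range of the 2 replicates overlapped between Mllt3 and Runx1, between Hlf and Meis1 and between Meis1 and Hhex, and did not overlap between the other neighbours in this order. The median over all genes with a shared promoter region was 5.96 in replicate 1 and 5.05 in replicate 2. Among those genes 67.3% had a lower mean promoter signal than Mllt3 and 58.6% a lower one than Runx1, and for the remaining 5 genes the share ran from 18.7% for Mecom to 35.3% for Kit. The ratio of replicate 1 to replicate 2 lay between 1.05 at Hhex and 1.33 at Meis1, around the median of 1.14 over all shared regions.

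**Figure D1:**
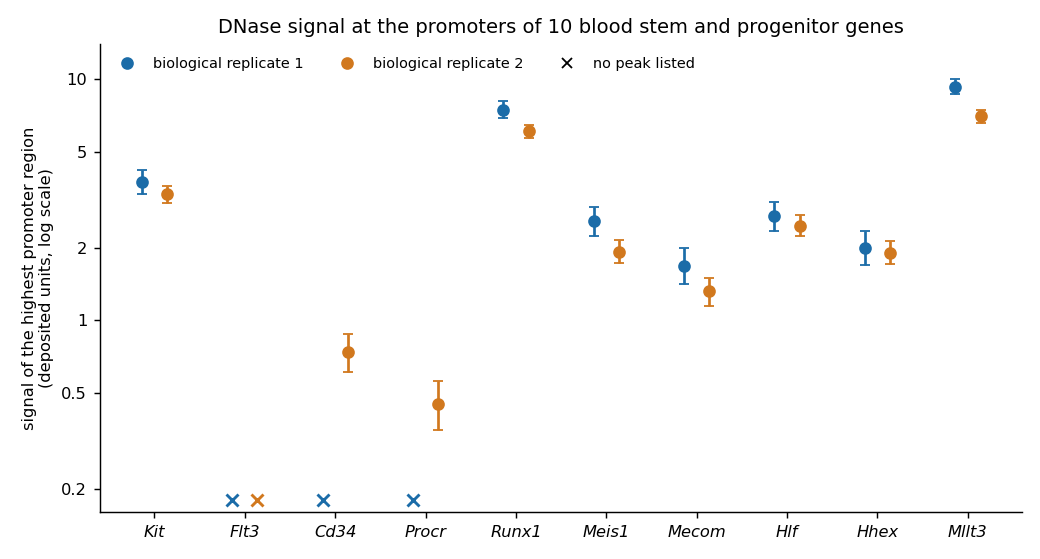
Signal of the highest promoter region of each gene (vertical axis, deposited units, log scale) in replicate 1 (left of each pair) and replicate 2 (right), with 95% Poisson intervals of the recovered counts; crosses mark a replicate with no promoter peak. Mllt3 and Runx1 stand highest in both replicates, Flt3 has no promoter peak in either, and Cd34 and Procr have one in replicate 2 alone.

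Kit encodes the receptor tyrosine kinase for stem cell factor and lies at chr5:75574916-75656722 (mm10, plus strand). Its territory of 274.3 kb held 13 regions, 3 of them shared, with 7 seen only in replicate 1 and 3 only in replicate 2. The promoter region covered the first transcript start and held 2 footprints in replicate 1 and 5 in replicate 2, of which 1 in each overlapped the other. It is printed to show that shared footprint. Sequences here and below are those of the reference genome (RefSeq assembly GRCm38.p6, which has the mm10 coordinates), read 5′ to 3′ on the strand of the gene. Capitals mark bases that lay in footprints of both replicates, unless stated otherwise.
Kit promoter, chr5:75574821-75575080, plus strand: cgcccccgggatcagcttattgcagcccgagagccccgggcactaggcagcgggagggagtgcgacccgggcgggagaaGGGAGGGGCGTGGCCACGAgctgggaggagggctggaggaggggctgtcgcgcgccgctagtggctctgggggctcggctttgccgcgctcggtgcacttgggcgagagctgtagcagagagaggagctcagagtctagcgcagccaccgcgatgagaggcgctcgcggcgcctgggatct
The 19 capitals are rich in G, and none of the 11 motifs searched lay in this region. No other form of these motifs was searched.

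A second shared region 0.8 kb downstream of the start of Kit had 1.29 in replicate 1 (1.05 to 1.57) and 1.09 in replicate 2 (0.934 to 1.26), with 1 footprint in replicate 1 and none in replicate 2. The third lay in an intron at +33.2 kb, with 1.04 (0.825 to 1.29) and 0.507 (0.404 to 0.628). Its signal was 2.05 times as high in replicate 1. The window from 3 to 7 kb downstream of the start, around a position known as an enhancer of Kit in mouse blood progenitors, held 2 adjacent peaks of replicate 1, with 0.544 and 0.772. It held no peak of replicate 2. The lowest false discovery rate (FDR) listed in this window was 7.05e-05 in replicate 1, while replicate 2 had no base listed under 0.05. A peak at +49.6 kb in replicate 1 alone had 1.43, and a separate peak of replicate 2 with 0.531 lay 0.3 kb away without overlap. Outside the 100 kb limit, the nearest shared region upstream lay at -114.4 kb, the distance of an upstream enhancer bound by Gata factors in mouse mast cells and progenitors. It had 1.76 in replicate 1, against 0.682 in replicate 2, with 3 and 6 footprints.

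Flt3, at chr5:147330741-147400489 (minus strand), encodes the receptor for Flt3 ligand that marks early lymphoid and myeloid progenitors. It had no promoter peak and no base with an FDR under 0.05 within 1 kb of its single start in either replicate. Its territory nevertheless held 12 shared regions and 7 of replicate 1 alone, with none of replicate 2 alone. The highest was the promoter of the neighbour Pan3 at -29.7 kb, with 10.7 in replicate 1 and 10.1 in replicate 2. The nearest to the start of Flt3 lay at -2.2 kb, with 1.46 (1.20 to 1.75) and 0.779 (0.650 to 0.925), so a promoter window of 2.5 kb would count it as a promoter region. The region in the first intron, at +11.9 kb, had 2.42 (2.09 to 2.79) in replicate 1, against 0.670 (0.551 to 0.807) in replicate 2. This was the largest ratio among all shared regions around the 10 genes, 3.61. Regions at +68.7 kb inside the gene (2.08 and 1.63) and at +76.8 kb downstream of it (2.20 and 2.33) were also shared. The sequences at -2.2 and +76.8 kb are shown because the same word, the core of the motif of the boundary factor CTCF (AGGGGGC, or GCCCCCT on the other strand), lay wholly in footprints of both replicates in each.
Flt3 -2.2 kb, chr5:147402621-147402800, minus strand: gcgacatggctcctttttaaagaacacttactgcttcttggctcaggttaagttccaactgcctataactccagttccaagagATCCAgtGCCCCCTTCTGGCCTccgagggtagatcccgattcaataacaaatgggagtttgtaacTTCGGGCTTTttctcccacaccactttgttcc
Flt3 +76.8 kb, chr5:147323581-147323780, minus strand: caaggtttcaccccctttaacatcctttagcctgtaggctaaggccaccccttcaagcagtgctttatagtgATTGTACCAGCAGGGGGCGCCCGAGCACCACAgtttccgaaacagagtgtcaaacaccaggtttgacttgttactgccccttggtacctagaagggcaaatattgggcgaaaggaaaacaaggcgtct
In the second sequence the same footprints also covered the RUNX word TGTGGT, which reads ACCACA on this strand.

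Cd34, at chr1:194938819-194961279 (plus strand), encodes a surface sialomucin used to sort blood progenitors and also carried by endothelial cells. Its promoter had a peak in replicate 2 alone, with 0.736 (0.612 to 0.879) and 5 footprints. In replicate 1 no base of the promoter window was listed under an FDR of 0.05, while in replicate 2 the lowest FDR was 1.04e-05 over 407 listed bases. The territory of 200.2 kb held 14 regions, 4 of them shared, with 8 seen only in replicate 1 and 2 only in replicate 2. All 4 shared regions lay between protein-coding genes. The highest, at +37.5 kb, had 6.18 (5.64 to 6.75) in replicate 1 and 5.71 (5.35 to 6.09) in replicate 2, and the region at -59 kb had 3.68 (3.27 to 4.13) and 4.41 (4.10 to 4.74). The other shared regions were lower, with 0.810 and 0.368 at -10.7 kb and 0.759 and 0.730 at +23.6 kb. The promoter is shown with capitals for footprints of replicate 2, and the region at +37.5 kb with capitals for both replicates, to set the weak promoter beside the strongest distant site.
Cd34 promoter, chr1:194938781-194939040, plus strand: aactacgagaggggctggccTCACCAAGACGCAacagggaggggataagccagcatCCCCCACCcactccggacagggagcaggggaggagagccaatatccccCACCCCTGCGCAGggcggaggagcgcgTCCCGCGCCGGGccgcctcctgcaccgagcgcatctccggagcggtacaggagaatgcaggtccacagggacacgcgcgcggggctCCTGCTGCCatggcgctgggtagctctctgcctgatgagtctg
Cd34 +37.5 kb, chr1:194976241-194976440, plus strand: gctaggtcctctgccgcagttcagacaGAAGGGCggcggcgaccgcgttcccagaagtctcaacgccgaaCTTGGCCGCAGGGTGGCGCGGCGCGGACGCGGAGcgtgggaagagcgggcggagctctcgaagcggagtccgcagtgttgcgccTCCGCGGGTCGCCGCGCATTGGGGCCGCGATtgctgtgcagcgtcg
The distant site held 31 CpG dinucleotides in 200 bases, against 20 in the 260 bases at the promoter. Its footprints covered 87 bases in replicate 1 and 92 in replicate 2, of which 72 were the same.

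Procr, at chr2:155751117-155755471 (plus strand), encodes the endothelial protein C receptor, which marks blood stem cells and endothelium. Its promoter had a peak in replicate 2 alone, with 0.447 (0.351 to 0.561) and 2 footprints, and a lowest FDR of 0.00715 over 287 bases. No base of the window was listed under 0.05 in replicate 1. The surrounding 200.2 kb were the most densely open of the 10 territories, with 6.99 shared regions per 100 kb, and 14 of 19 regions were shared. Of these 14, however, 8 lay at promoters of neighbouring genes. The highest was that of Trpc4ap at -58.7 kb, with 11 in replicate 1 and 11.8 in replicate 2, followed by Edem2 at -21.7 kb (6.62 and 4.53) and BC029722 at +68.1 kb (6.09 and 4.96), whose order differed between the replicates. The shared region nearest to the start of Procr lay at +4.8 kb, just past the end of the gene, with 1.42 (1.17 to 1.71) and 1.04 (0.889 to 1.21). The region at -54.6 kb had 4.52 (4.06 to 5.01) and 4.18 (3.87 to 4.50). Both are shown because a CTCF core lay in footprints of both replicates, as AGGGGGC at -54.6 kb and as GCGCCCT, the reverse complement of AGGGCGC, at +4.8 kb.
Procr -54.6 kb, chr2:155696381-155696580, plus strand: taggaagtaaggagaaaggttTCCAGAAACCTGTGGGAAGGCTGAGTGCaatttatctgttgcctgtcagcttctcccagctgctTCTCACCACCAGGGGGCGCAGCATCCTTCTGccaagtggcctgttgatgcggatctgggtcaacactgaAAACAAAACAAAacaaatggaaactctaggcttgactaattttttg
Procr +4.8 kb, chr2:155755841-155756040, plus strand: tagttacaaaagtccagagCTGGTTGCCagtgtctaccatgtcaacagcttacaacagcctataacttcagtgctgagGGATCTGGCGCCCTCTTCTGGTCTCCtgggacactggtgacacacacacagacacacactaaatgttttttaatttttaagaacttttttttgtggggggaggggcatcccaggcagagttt

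Runx1, at chr16:92601466-92826149 (minus strand), encodes the DNA-binding partner of Cbfb, without which blood stem cells do not form. It is transcribed from a distal promoter at the 5′ end of the gene and from a proximal promoter far downstream. Both were open in both replicates. The highest region of the proximal promoter, at +128.7 kb, had 7.48 in replicate 1 and 6.10 in replicate 2, as given above, and 7 and 6 footprints. The distal promoter had 3.76 (3.34 to 4.21) and 2.05 (1.84 to 2.28), with 5 footprints in each replicate. The proximal signal was therefore above the distal one in both libraries beyond counting error.

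With 16 shared regions among 26, Runx1 had the most shared regions of the 10 genes, 4.84 per 100 kb. Of these, 10 lay in its own introns. The region at +24.4 kb fell in the window from 22 to 25 kb downstream of the distal start, which holds the well known intronic enhancer of Runx1 in blood stem cells. It had 5.24 (4.75 to 5.77) in replicate 1, against 2.62 (2.38 to 2.88) in replicate 2. Similar values stood at +110.4 kb, with 5.43 (4.93 to 5.97) and 2.64 (2.40 to 2.90), and at +3.9 kb, with 4.89 (4.41 to 5.40) and 2.15 (1.94 to 2.39). The upstream region at -57.9 kb had 4.29 (3.85 to 4.77) and 1.92 (1.71 to 2.14). These 4 regions were each 2.00 to 2.27 times as high in replicate 1 as in replicate 2. The region at +127.3 kb, beside the proximal promoter, was as high as that promoter but close to equal between replicates, with 7.47 (6.88 to 8.10) and 6.90 (6.51 to 7.31). The 11 shared regions of Runx1 away from promoters had a median ratio of 1.65, beside 1.12 for its 5 promoter regions and 1.18 for all 25847 shared regions away from promoters. Part of every ratio is the scale of each library's values, which no source used here names. All 11 were higher in replicate 1 as deposited, where 66.4% of all such regions were, and 9 of the 11 had a ratio above 1.14, the median of all shared regions, where 53.8% of all such regions did.

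The sequences at +24.4, +3.9 and +127.3 kb are shown as 2 intronic sites whose signal differed between the replicates and 1 intronic site close to equal.
Runx1 +24.4 kb, chr16:92801641-92801880, minus strand: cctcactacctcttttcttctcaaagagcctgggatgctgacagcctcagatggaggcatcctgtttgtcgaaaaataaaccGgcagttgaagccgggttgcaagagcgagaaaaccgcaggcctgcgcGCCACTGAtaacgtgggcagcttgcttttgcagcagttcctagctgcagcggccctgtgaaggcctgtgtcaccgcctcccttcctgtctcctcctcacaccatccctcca
Runx1 +3.9 kb, chr16:92822141-92822380, minus strand: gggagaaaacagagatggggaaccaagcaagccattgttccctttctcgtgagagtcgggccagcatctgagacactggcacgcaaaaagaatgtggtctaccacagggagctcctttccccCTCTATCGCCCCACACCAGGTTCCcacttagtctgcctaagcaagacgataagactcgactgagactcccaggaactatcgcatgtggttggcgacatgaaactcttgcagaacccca
Runx1 +127.3 kb, chr16:92698741-92698920, minus strand: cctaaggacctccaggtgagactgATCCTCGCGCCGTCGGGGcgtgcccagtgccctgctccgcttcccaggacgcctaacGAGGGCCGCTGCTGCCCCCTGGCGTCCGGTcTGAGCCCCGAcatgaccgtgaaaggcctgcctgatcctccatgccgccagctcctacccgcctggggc
At +24.4 kb the footprints of the replicates shared only 9 bases. Of GATA sites only the word AGATAA was searched, which this sequence lacks, and other forms were not looked for. Of the E-box words (CAGNTG, bound by Tal1 and its relatives) CAGTTG had 5 of its 6 bases in a footprint of replicate 2 alone, while CAGATG and the MEIS word TGACAG lay outside the footprints of both replicates. At +3.9 kb a footprint of 26 bases in replicate 1 and one of 24 bases in replicate 2 began at the same base, and 3 RUNX words lay in the sequence without being covered in both replicates. At +127.3 kb a footprint of 30 bases had the same first and last base in both replicates and held the CTCF core GCCCCCT.

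Meis1, at chr11:18879817-19018985 (minus strand), encodes a homeodomain partner of Hox proteins that keeps blood stem cells quiescent. It had only 2 shared regions among 16 in 239.2 kb, 0.836 per 100 kb, the lowest density of the 10 genes. One was the promoter at the 5′ end and the other lay 1.5 kb upstream, with 1.95 (1.65 to 2.28) in replicate 1 and 2.26 (2.04 to 2.5) in replicate 2. The regions of single replicates lay apart from each other. The 5 of replicate 1 alone were spread through the introns from +48.8 to +93.9 kb, while the 9 of replicate 2 alone lay between -8.4 and +10.7 kb. The highest of replicate 1 alone had 0.785 at +48.8 kb, and the highest of replicate 2 alone had 1.07 at -8.4 kb. The promoter is shown because all 3 footprints of each replicate overlapped one of the other, and one of them held 6 of the 8 bases of the ETS word CCGGAAGT, here as ACTTCCGG.
Meis1 promoter, chr11:19018901-19019200, minus strand: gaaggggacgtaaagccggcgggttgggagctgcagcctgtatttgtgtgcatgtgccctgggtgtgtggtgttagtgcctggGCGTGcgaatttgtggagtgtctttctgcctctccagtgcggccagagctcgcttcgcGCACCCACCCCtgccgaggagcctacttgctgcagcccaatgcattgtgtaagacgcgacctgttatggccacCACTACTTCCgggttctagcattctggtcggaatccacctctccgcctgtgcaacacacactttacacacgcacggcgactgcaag

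Mecom, at chr3:29951296-30548008 (minus strand), encodes zinc finger proteins, among them the Evi1 form, that sustain blood stem cells. Its start at the 5′ end of the annotated gene had no shared region. The highest promoter region lay at an internal start at +39.5 kb, with 1.68 and 1.32 as above and 3 and 6 footprints. A lower one lay at +534.9 kb, with 0.506 (0.362 to 0.689) in replicate 1 and 0.676 (0.557 to 0.813) in replicate 2. Across 750.3 kb there were 10 shared regions, 3 of replicate 1 alone and 12 of replicate 2 alone. The 3 highest were those at the start of the neighbour Mynn between -53.3 and -54.9 kb, led by 9.86 in both replicates. Between +39.5 and +532.6 kb there was no shared region, and the 3 peaks of replicate 1 alone, between +93.3 and +403.8 kb, had 0.240 to 0.354. The same span held 4 peaks of replicate 2 alone, at +40.1, +40.8, +441.4 and +442.4 kb, with 0.241 to 0.507. The farthest region inside the limit, at -99.9 kb, was a promoter of Lrrc34 and Lrriq4 with 0.582 and 0.555. On the other side of that limit, the next region upstream lay at -148.5 kb with 0.506 and 0.984.

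Hlf, at chr11:90336536-90390895 (minus strand), encodes a basic leucine zipper factor found in few blood cells other than stem cells. It had 7 regions, the fewest of the 10 genes, of which 3 were shared. The promoter had 2.70 and 2.47, and a region at -27.2 kb was as high, with 2.57 (2.23 to 2.95) in replicate 1 and 2.79 (2.55 to 3.06) in replicate 2. The third, at +73.2 kb, had 0.443 (0.309 to 0.616) and 0.356 (0.271 to 0.459). The replicates differed little at all 3 sites, with ratios of 0.919 to 1.24. Both strong sites are shown.
Hlf promoter, chr11:90390861-90391080, minus strand: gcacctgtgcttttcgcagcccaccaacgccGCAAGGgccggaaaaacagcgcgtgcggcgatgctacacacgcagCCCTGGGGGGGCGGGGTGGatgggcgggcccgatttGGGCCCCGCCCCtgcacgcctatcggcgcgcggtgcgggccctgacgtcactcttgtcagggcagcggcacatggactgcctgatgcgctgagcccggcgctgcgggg
Hlf -27.2 kb, chr11:90417961-90418260, minus strand: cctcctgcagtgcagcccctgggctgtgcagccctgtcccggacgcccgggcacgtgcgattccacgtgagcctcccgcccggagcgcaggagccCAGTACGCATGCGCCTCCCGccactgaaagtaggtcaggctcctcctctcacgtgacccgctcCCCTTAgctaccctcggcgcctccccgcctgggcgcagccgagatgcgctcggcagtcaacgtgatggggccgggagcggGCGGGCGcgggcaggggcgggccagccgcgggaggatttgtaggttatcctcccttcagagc
In the promoter, 2 copies of the word bound by SP and KLF factors (GGGCGGGG, once as CCCCGCCC) lay whole in footprints of both replicates. The region at -27.2 kb held 30 CpG dinucleotides in 300 bases and 3 copies of the E-box CACGTG, none of them inside a footprint.

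Hhex, at chr19:37434810-37440731 (plus strand), encodes a homeodomain factor of the early liver bud that is also used in blood and endothelial progenitors. Its promoter region at the 5′ end had 2.00 in replicate 1 and 1.91 in replicate 2. The window from 0.5 to 2 kb downstream, which holds a known blood enhancer of the gene, overlapped 2 shared regions. Both lie within 1 kb of a transcript start. The first, at +0.7 kb, had 1.91 (1.62 to 2.24) in replicate 1, against 0.730 (0.606 to 0.873) in replicate 2, and the second, at +1.9 kb, had 0.734 (0.557 to 0.949) and 0.519 (0.415 to 0.641). The footprints there were 10 in replicate 1 and 1 in replicate 2. All 7 shared regions of Hhex were higher in replicate 1 as deposited, as were 64.1% of all shared regions, and 5 of the 7 had a ratio above the median of all shared regions. Away from promoters the highest lay at +75.1 kb, with 4.15 (3.71 to 4.63) and 3.27 (3.0 to 3.56), while the highest of all was the promoter of the neighbour Kif11 at -58.5 kb, with 8.66 and 8.24. The site at +75.1 kb is shown because its main footprint of both replicates covered 2 overlapping words of the second CTCF form, AGGGCGC and GCGCCCT.
Hhex +75.1 kb, chr19:37509821-37510020, plus strand: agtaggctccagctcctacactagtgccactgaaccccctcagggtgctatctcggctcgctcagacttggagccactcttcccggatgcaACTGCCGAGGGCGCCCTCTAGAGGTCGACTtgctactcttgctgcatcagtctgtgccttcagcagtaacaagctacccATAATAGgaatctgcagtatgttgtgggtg

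Mllt3, at chr4:87769925-88033364 (minus strand), encodes a reader of acetylated histones in the super elongation complex, known in human blood stem cells as a factor of their self-renewal. Its promoter was the strongest of the 10, with 4 footprints in each replicate. The 4 shared promoter regions around the 5′ end differed, since the other 3 had signals of only 0.468 to 1.01 in replicate 1 and 0.640 to 1.35 in replicate 2. At an internal start at +227.0 kb the signal was 3.85 (3.43 to 4.31) in replicate 1, against 1.17 (1.01 to 1.34) in replicate 2, a ratio of 3.30. The gene had 10 shared regions, 13 of replicate 1 alone and 2 of replicate 2 alone, the largest number of regions of replicate 1 alone. The highest signal in its territory of 427.1 kb was the promoter of the neighbour Focad at -61.2 kb, with 15.0 and 10.6. The promoter of Mllt3 is shown for its 4 footprints, which paired between the replicates and covered the SP and KLF word CCCCGCCC.
Mllt3 promoter, chr4:88033301-88033500, minus strand: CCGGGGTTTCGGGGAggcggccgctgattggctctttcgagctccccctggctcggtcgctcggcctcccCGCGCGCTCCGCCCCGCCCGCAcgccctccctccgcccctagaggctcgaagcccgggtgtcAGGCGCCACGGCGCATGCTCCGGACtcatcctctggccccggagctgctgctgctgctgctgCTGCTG

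**Figure D2:**
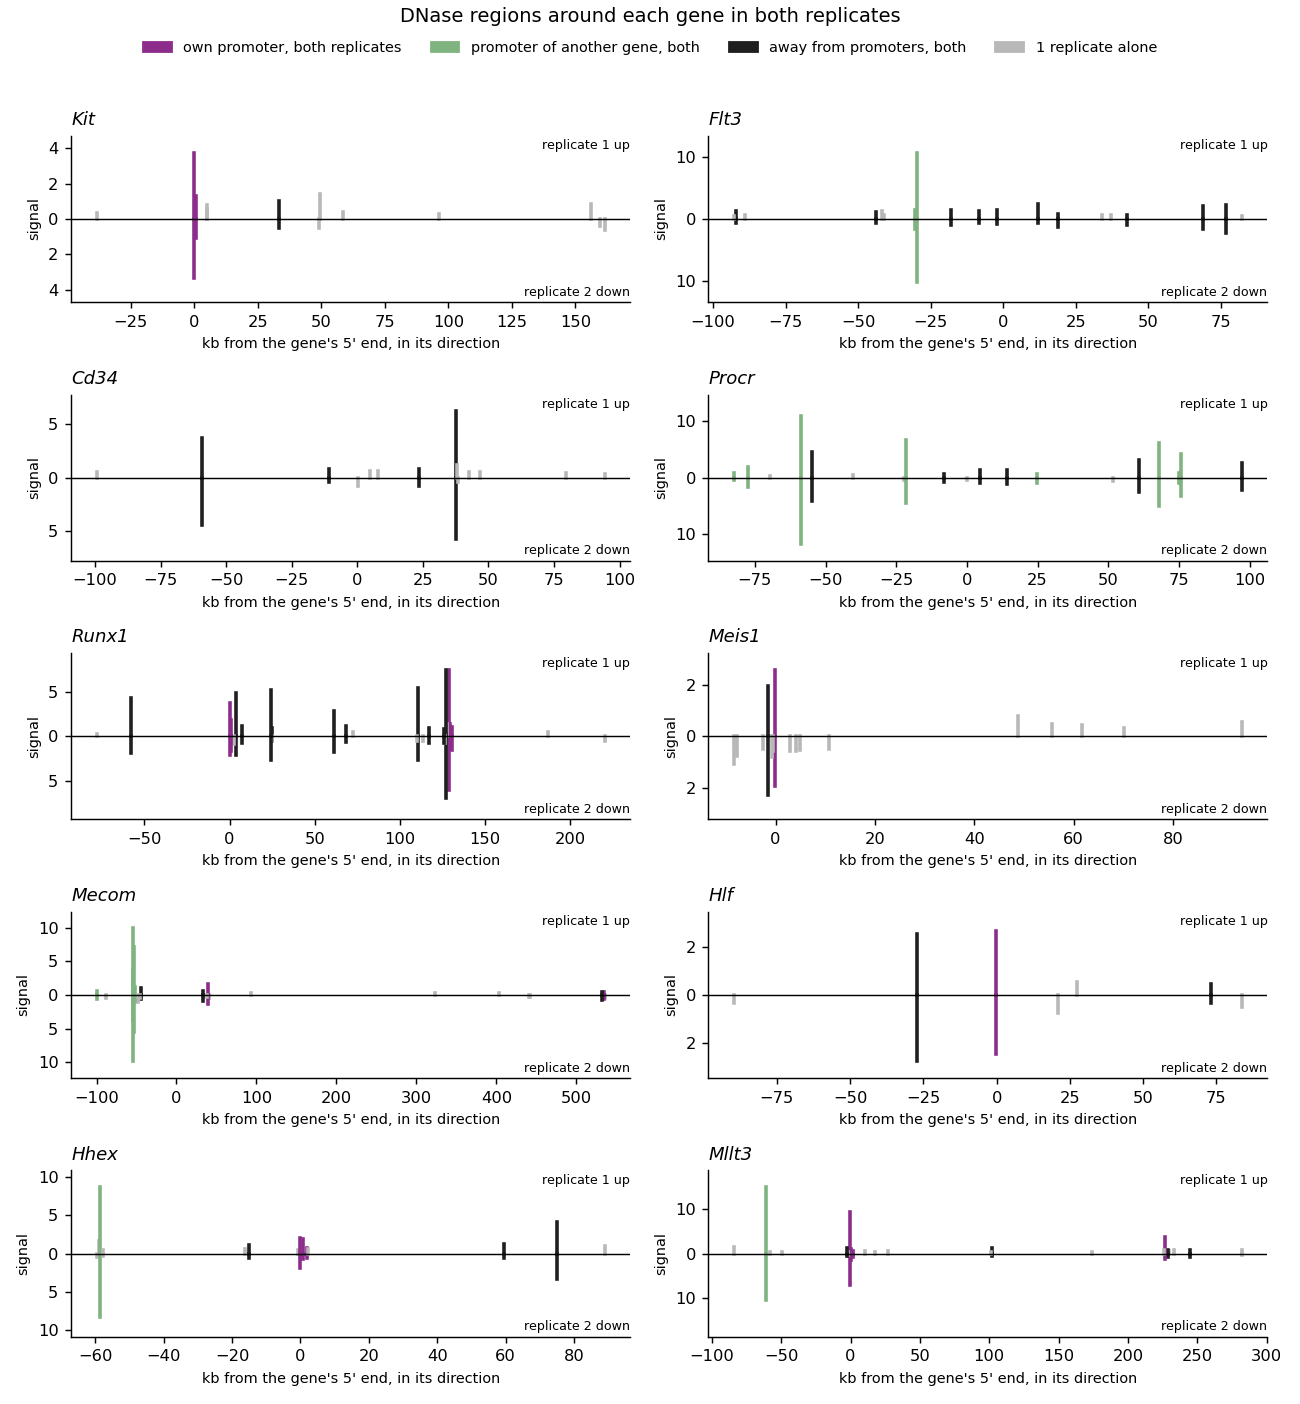
Regions around each gene by distance from its 5′ end (horizontal axis, kb, positive in the direction of transcription), with the signal in replicate 1 drawn upward and in replicate 2 downward (deposited units, a separate scale per gene). The tallest bars near Mecom, Flt3, Procr, Hhex and Mllt3 are promoters of neighbouring genes. Most single-replicate regions (grey) are low, but that at +49.6 kb of Kit (1.43 in replicate 1) exceeds the shared ones at +0.8 kb (1.29) and +33.2 kb (1.04).

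Together the 10 territories held 179 regions. Of these 81 (45.3%) were shared, as were 46.2% of all 99252 regions. Replicate 1 alone had 56 and replicate 2 alone 42. The density of shared regions was 2.67 per 100 kb over the territories, with 1.68 over the genome and a median of 3.47 over the territories of all protein-coding genes. Genes differed from one another more than this, between 0.836 at Meis1 and 6.99 at Procr. Of the 81 shared regions 19 lay at promoters of the genes themselves and 17 at promoters of other genes alone. Another 3 lay in exons, 22 in introns and 20 between genes. These classes used protein-coding genes only, here and wherever regions away from promoters are named. The start of any other gene, such as a noncoding one, was not counted as a promoter. Of the 22 in introns 19 were in introns of the 10 genes.

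**Figure D3:**
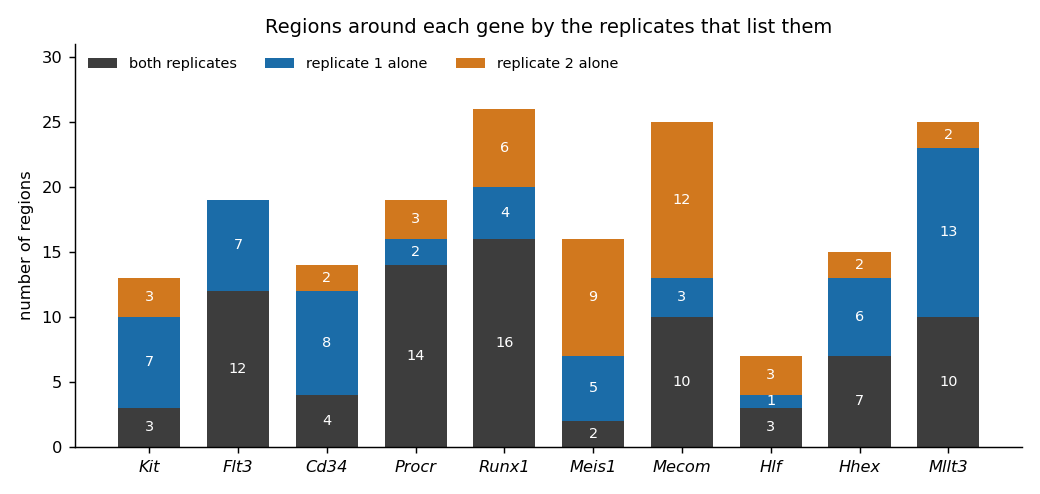
Number of regions around each gene (vertical axis), split into those with peaks of both replicates, of replicate 1 alone and of replicate 2 alone. Mllt3 has 13 regions of replicate 1 alone, and Mecom and Meis1 have 12 and 9 of replicate 2 alone.

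Regions in a single replicate were weaker by their medians than shared ones. Their signals ran from 0.240 to 1.70 in replicate 1 (median 0.519) and from 0.241 to 1.08 in replicate 2 (median 0.516). Shared regions had medians of 1.46 and 1.24. Of the 144 peaks of replicate 1 around the genes 61.1% had an overlapping peak in replicate 2 (95% interval by Wilson's method, 53.0 to 68.7), and 65.9% of the 129 peaks of replicate 2 had one in replicate 1 (57.4 to 73.5). The shares over all peaks, 62.8% and 64.2%, lay inside these intervals. In the highest of 5 classes of all peaks by signal every peak around the genes was shared, 30 of 30 in replicate 1 and 26 of 26 in replicate 2, beside 98.4% and 99.0% of all peaks of that class. In the lowest class 4 of 22 (18.2%) and 2 of 13 (15.4%) were shared, beside 23% and 14.1% of all.

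Among the 81 shared regions log2 signals of the replicates correlated with a Pearson r of 0.908 and a Spearman rho of 0.846, a description over regions of 2 libraries that have the same sequence and base composition. The values over all shared regions were 0.922 and 0.889. After division by the median ratio of all shared regions, 4 of the 81 regions were over 2-fold apart, where 8.66% of all shared regions were. All 4 were higher in replicate 1, namely those at +11.9 kb of Flt3, +227.0 kb of Mllt3, and +0.7 and +59.4 kb of Hhex. The last had 1.30 in replicate 1 and 0.513 in replicate 2. The median ratio was 1.27 for the 45 regions away from promoters, 1.13 for the 19 own promoter regions and 1.06 for the 17 promoters of other genes. Over all shared regions it was 1.18 away from promoters and 1.10 at promoters, so the same order held there.

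**Figure D4:**
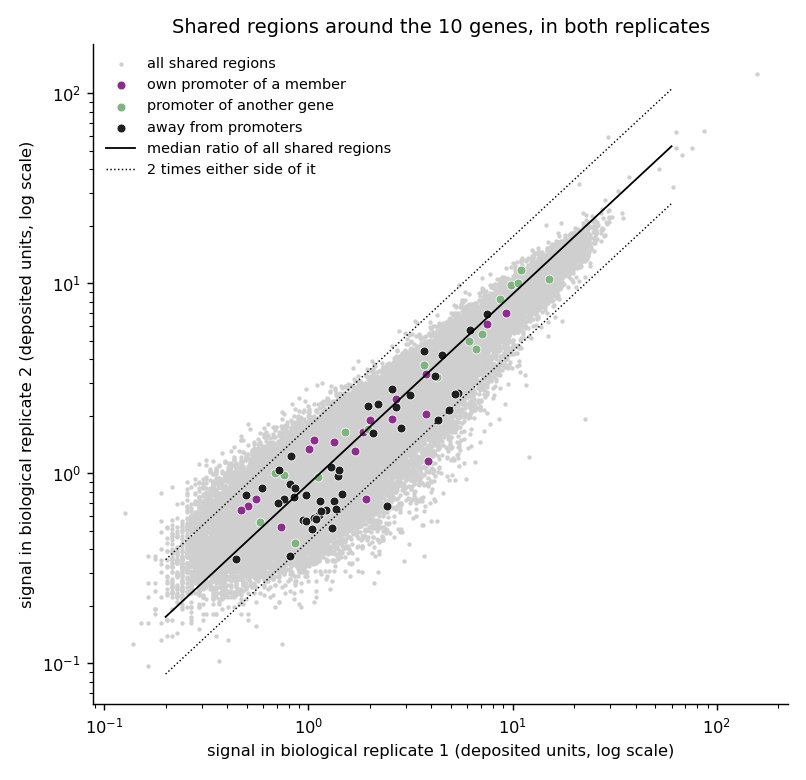
Signal of shared regions in replicate 1 (horizontal axis) and replicate 2 (vertical axis), both in deposited units on log scales; coloured points are the 81 regions around the 10 genes and grey points all 45831. The solid line is the median ratio and the dotted lines lie 2-fold to either side; 4 coloured points fall below the lower dotted line and none above the upper one.

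Footprints agreed less often than peaks. Around the 10 genes 55.0% of the 271 footprints of replicate 1 (interval 49.0 to 60.8) overlapped one of replicate 2, and 31.9% of the 432 of replicate 2 (27.7 to 36.5) overlapped one of replicate 1, beside 56.8% and 35.6% of all footprints. Replicate 2, with more counts per peak, had more footprints, and 87 of its 432 lay outside its own peaks, against 32 of 271 in replicate 1. Inside shared regions the shares were 62.0% and 45.4%, beside 65.4% and 46.8% of all footprints in shared regions. A pair of overlapping footprints was found in 59 of the 81 shared regions, as in 66.4% of all shared regions. Kit had such a pair in 1 of its 3 shared regions, and the 3 shared regions of Mecom away from promoters had none.

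**Figure D5:**
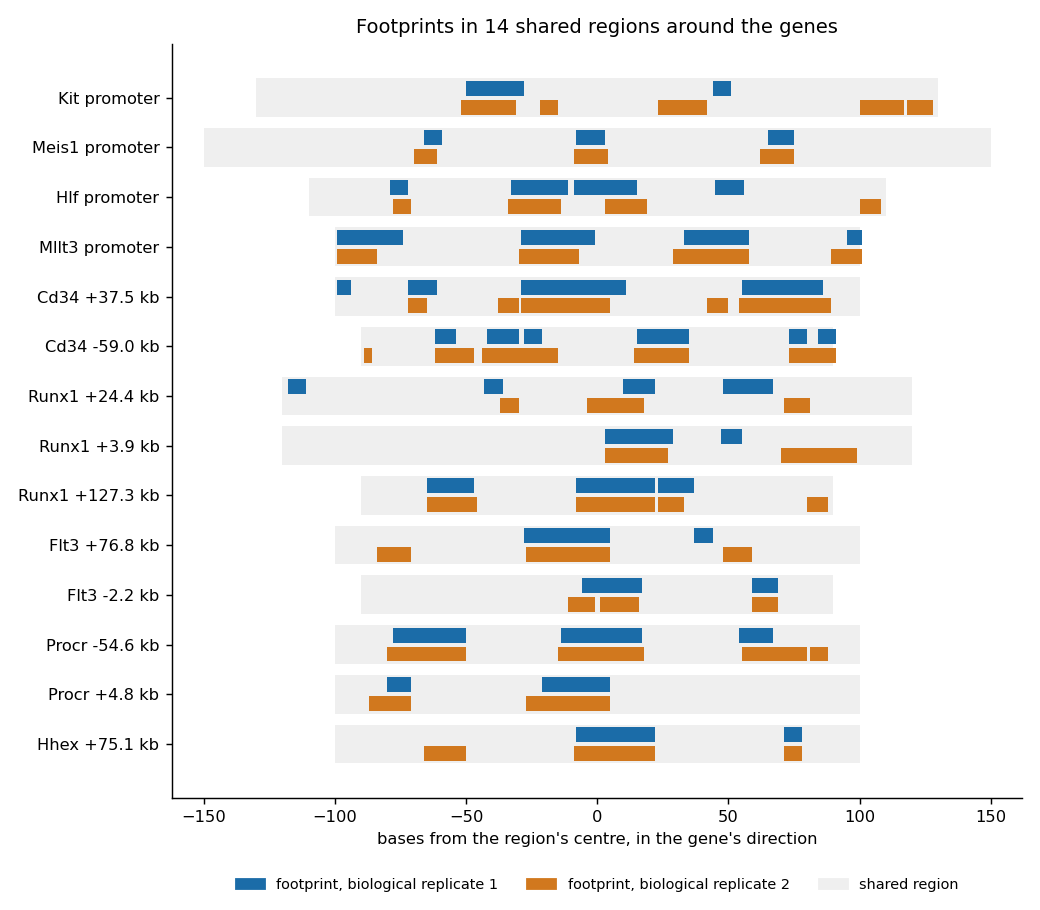
Positions of footprints in 14 shared regions (horizontal axis, bases from the centre of the region in the direction of the gene), with replicate 1 above replicate 2 in each row and the region in grey. Each footprint drawn at the promoters of Mllt3 and Meis1 overlaps one of the other replicate, and those on the CTCF core sites of Runx1, Flt3, Procr and Hhex overlap over most of their length, while those at +24.4 kb of Runx1 share few bases.

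CTCF cores lay in footprints of both replicates at several sites away from promoters. Of the 45 shared regions away from promoters 34 were at most 300 bp wide, and 10 of these 34 (29.4%) had an AGGGGGC or AGGGCGC word, on either strand, wholly in footprints of both replicates. The share was 11.1% over the 20980 such regions of the genome. The second form was added after the sequences had been seen. With AGGGGGC alone the counts were 6 of 34 (17.6%) and 8.23%. The 10 regions were 4 of 5 searched around Procr, 3 of 7 around Flt3, 2 of 2 around Hhex and 1 of 9 in Runx1. None was found in the 4 searched around Cd34, the 1 around Meis1, or the 2 each around Mecom, Hlf and Mllt3. Kit had no region narrow enough to be searched. At +244.5 kb of Mllt3 a core had only 5 of its 7 bases in footprints of both replicates. The 10 regions with a whole core had a median ratio of replicate 1 to replicate 2 of 1.24. Wider regions around the genes were not searched for a core, so no ratio for regions without one is set beside it. Over the genome, with regions of any width, the median was 1.06 for the 2400 with such a core and 1.21 for the 23447 without.

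Words of the blood factors were not more frequent than elsewhere by much. In the central 200 bp, the GATA word AGATAA was found in 9 of the 45 regions away from promoters (20%, beside 15.9% of all such regions), the RUNX word TGTGGT in 9 (20% and 17.2%), and the E-box CAGNTG in 24 (53.3% and 49.7%), counting both strands. In 30 bp windows around the 135 overlapping footprint pairs in shared regions there was no AGATAA (beside 1.19% of all 80256 pairs), and TGTGGT was found in 2 (1.48%, beside 1.63%). AGATAA words of the Runx1 regions at +110.4, +61.2 and +25.2 kb lay in footprints of 1 replicate at most. A word is a description of the sequence and not evidence of binding. Only the listed words were searched, so other forms of a factor's site, GATA sites included, were not counted. At promoters, GGGCGGGG was found in 2 of the 19 own promoter regions (10.5%) and in 23.6% of all promoter regions.

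Flt3 had more CpG dinucleotides at its start than the other genes without a shared promoter region. Within 500 bp of the 5′ end Flt3 had 66, in the fourth of 5 classes of genes by this count, of which 88.6% had a shared promoter region. Cd34 with 32 and Procr with 31 were in the third class, where the share was 74.2%. Meis1, with 43 in the same class, had a shared promoter region. Kit (70), Hlf (68) and Mllt3 (74), in the same class as Flt3, had a shared promoter region, as did Hhex, with 123 in the top class. Runx1 with 17 and Mecom with 11 were in the second class, where 30.9% of genes had one, and their highest promoter regions lay at internal starts.

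Of 35 other genes of blood stem and progenitor cells, listed for this purpose, 20 (57.1%) had a shared promoter region. This was close to the 58.4% of all protein-coding genes, so the share does not set the list apart. The 2 highest were Lyl1, a helix-loop-helix factor, with 17.3 in replicate 1 and 9.62 in replicate 2, and Tal1, its relative needed to form blood, with 9.58 and 6.03. Both exceeded the promoters of Kit, Hlf, Meis1, Hhex and Mecom in both replicates. The lowest were Cd93, a surface receptor, with 0.418 and 0.435, Erg, an ETS factor, with 0.316 and 0.670, and Kitl, the ligand of Kit, with 0.506 and 0.942. The ligand of Flt3, Flt3l, had 5.94 and 5.61. Csf1r, Ly6a and Slamf1, which encode surface proteins of blood cells, and Thpo, which encodes thrombopoietin, had no promoter peak in either replicate.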

How the data were processed

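DNase-seq libraries of 2 biological replicates (1 group, embryonic liver) were used as deposited on build mm10. The 10 genes, the lists of other genes and the enhancer windows, which are approximate, were chosen with earlier results of these data known. Per the labels and the notes deposited with the files, the authors derived the peak lists, the FDR per stretch of bases and the footprints of a library from its own alignment. The signal of each peak is as deposited, and its normalization is not stated. The deposited FDR values (p-values adjusted for multiple testing) were used where under 0.05, and the deposited footprints carry 0.01 in every line. No source used here names the aligner or the callers.

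The longer of the 2 deposited peak lists (76130 and 73852 peaks) was used. Signals were divided by the step of their library, and whole multiples were counted to within 0.05 of a step (100% of peaks in both). The value of a region is that of its highest peak in a replicate. Transcript starts came from GENCODE vM21, and bases from RefSeq GRCm38.p6. Every member was named, and for each the 3 shared regions of highest mean rank, and of the 35 listed genes the 3 highest and 3 lowest by mean promoter signal. Some results on these listed genes are not reported here. Flt3l and the genes without a promoter peak were named after their values were seen. The 11 motif words were those spelled out in the results, a second word of ETS factors (GAGGAAGT) and the word of the AP-1 dimer (TGACTCA), searched on both strands, and MEIS and E-box words can overlap. Python 3.11.15, pandas 2.3.3, numpy 2.4.6, scipy 1.17.1, pysam 0.24.0 and samtools 1.23.1 were used. Merging, the step and the motif search were tested on simulated data. With 1 group no test between conditions was made. The alternatives were the shorter peak list, a 50% reciprocal overlap, the upper 50% of peaks, other promoter windows and territories, and each replicate left out.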

Additional observations from a re-analysis of the deposited data

How the results depend on the processing

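The count of 7 genes with a shared promoter region was the same with the shorter peak list, with a reciprocal overlap of 50%, with the upper 50% of peaks and with a promoter window of 500 bp. It was 8 with a window of 2.5 kb, which added Flt3, and 6 with the 5′ end of each gene alone, which dropped Mecom. With the peaks of a single replicate it was 7 to 9, Cd34 and Procr being added by replicate 2. The count of 81 shared regions was 60 with the shorter list, 69 with a 50% overlap, 58 with 50 kb and 48 with the upper 50% of peaks, and a single replicate gave 123 to 142 regions. The share of peaks found in the other replicate was 69.6% (replicate 1) and 74.7% (replicate 2) with the shorter list, 70.4% and 75.4% with the upper 50% of peaks, and 47.9% and 53.5% with a 50% overlap. The share of footprints was 35.4% and 22.2% with a 50% overlap, 62.0% and 45.4% inside shared regions, and 27.0% for replicate 2 with 50 kb. The 14 promoter values did not change with the shorter list or with the sum of the peaks of a region. No paired analysis was possible because the labels give 1 group.

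With 2 libraries of 1 condition no difference between genes can be set against more than 2 values. Replicate 2 held about as many peaks with more counts in each, and an unlisted peak in replicate 1 at Cd34 and Procr is not shown to be absent, since weak peaks were seldom shared. Regions belong to a gene by distance alone.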
